A study of Schizosaccharomyces pombe with 4 samples.

Results

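The mRNAs described here were recovered at an intermediate level with the RNA-associated protein Mkt1 of fission yeast (Schizosaccharomyces pombe). They were chosen by their number of rows in the deposited files, in which 1 row is 1 distinct cDNA. A gene was kept if rows naming it alone numbered 20 to 100 over the 2 Mkt1-HTP libraries, with 5 or more in each. Names of ribosomal proteins, elongation factors, histones, heat shock proteins, phosphate, thiamine, methionine and glycine cleavage genes and some glycolytic and other highly recovered genes were left out by the rule. Of 1457 genes with at least 1 row naming a single mRNA gene, 63 were in the range and 43 remained after 20 were left out by name. The working description of the set, mRNAs outside central metabolism, held only in part, because adenosylhomocysteinase, ser3, glt1, hxk2, eca39, fas1 and cut6 encode enzymes of amino acid, sugar or fatty acid metabolism.

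Mkt1 is a post-transcriptional regulator which, in budding yeast, acts with Pbp1, a partner of the poly(A)-binding protein. In CRAC, living cells are irradiated with UV light so that proteins become linked to the RNA they touch, the tagged protein is purified under denaturing conditions, and the attached RNA is sequenced as cDNA. A reverse transcriptase that meets the linked base often skips it, so a deletion in a cDNA can mark a contact. The 3′ untranslated region (3′ UTR) is where many regulators of mRNA stability and translation bind.

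Libraries came from exponentially growing cells in PMG medium lacking tryptophan at 32 °C, irradiated for 42.5 s, with 2 libraries per group that the study calls biological replicates. The Mkt1-HTP strain carried mkt1-HTP-KanR, in which Mkt1 bears a tag of histidines, a protease site and protein A. The control was the untagged parental strain. Both groups were of mating type h+ and shared the centromeric insertion otr1R(Sph1):ade6+ as well as the alleles ade6-210 and leu1-32 and the deletion ura4D18. The control measures what the purification recovers without a tag, and since no RNA level in the cells is used here, binding and abundance of an mRNA cannot be told apart in its count.

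Depth was very unequal. Replicates 1 and 2 of Mkt1-HTP comprised 24468 and 26899 distinct cDNAs, of which 11829 and 11224 were assigned to mRNAs. The controls comprised 1743 and 8142, with 160 and 511 assigned to mRNAs. Counts were scaled to 1000000 distinct cDNAs per library (CPM). One cDNA thus equalled 40.9 and 37.2 CPM in Mkt1-HTP but 574 and 123 CPM in the control. Wilson 95% intervals given below cover counting error only.

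Rows of the 43 mRNAs numbered 654 and 659 in the Mkt1-HTP libraries, against 5 and 19 in those of the control. These were 2.67% and 2.45% of all distinct cDNAs against 0.287% and 0.233%, and 5.53% and 5.87% of mRNA cDNAs against 3.13% and 3.72%. Mkt1-HTP counts chose the set, so these values describe it. All rows but 1 lay in the sense direction, the exception being an antisense row of glt1. The mean level per mRNA ran from 392.1 to 1240 CPM with a median of 546. On rows naming 1 gene, the 2 Mkt1-HTP libraries differed by under 2-fold for 29 mRNAs and by 3-fold or more for 3. They did not rank the 43 mRNAs alike, with a Spearman's rho of -0.22 between their CPM, as a description. The rule limits both the summed rows and the rows in each library, which bears on these fold differences and on rho.

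The limits of the rule cut through a continuum. Just inside the lower limit, bsu1 had 11 and 9 rows and SPAC1786.02 15 and 5, while just outside uvi15 had 8 and 11 and SPBC119.09c 18 and 1. No mRNA of the set came near the upper limit, since the highest had 64 rows. Just above it lay SPAC1F8.07c with 57 and 50 rows and pof2 with 65 and 48. When cDNAs were assigned to genes by strand, pof2 had only 11 and 17, which lies inside the range.

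Positions covered in both Mkt1-HTP libraries were seen independently in each, and the sequences around them are shown for that reason. For each mRNA the base was taken at which the smaller of the 2 libraries' cover was highest. In 14 mRNAs this base was covered by 5 or more cDNAs in each library, and in 10 of these 14 it lay in the 3′ UTR and in the other 4 in the coding sequence. Windows of 30 nt centred there are given for some of the 14, in the sense direction, 5′ to 3′. They come from the RefSeq genome (ASM294v3, whose nuclear chromosomes carry the coordinates of the files). Not shown are SPBC8D2.18c, SPCC553.10 and gas1, in the coding sequence, and SPAC29A4.02c, ecm33 and cpy1, in the 3′ UTR. The windows shown thus hold a larger share of 3′ UTR bases than the 14 do. Capitals mark the bases that reached the highest cover shared by both libraries.
snz1 (chrI:5416096-5416125, plus strand): attctccgtaatGCAGATgtcatttaatgt
sro1 (chrII:4082804-4082833, plus strand): taccagtttcaaCACATTggttcccctgct
zip1 (chrI:4301206-4301235, plus strand): TTTCTGCGTATGCATCCAACTGCTACGTTC
esc1 (chrI:1156202-1156231, plus strand): tttatgacttgcTAAATctgttaattacgg
tim44 (chrII:2207219-2207248, plus strand): tatttaactcgggtTttgcgggatgggttt
eca39 (chrII:442418-442447, minus strand): tgtatATAAATTTGTAAATCAATCGGagta
cam1 (chrI:1445749-1445778, plus strand): aaaGTAACTATGGTAGCATTTGTTGTTacc
tma19 (chrI:3809520-3809549, minus strand): TCTTGTTTCTGAGAAGTTCTAAATGCAAAT

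Of the 14 bases, those of snz1 and sro1 had the highest cover shared by both libraries, with 12 and 13 cDNAs and with 12 and 16 cDNAs in replicates 1 and 2, and lay 34 and 291 nt after the stop codon. Those of zip1 (7 and 9), esc1 (7 and 8), tim44 (7 and 7), eca39 (6 and 7) and cam1 (6 and 7) also lay in the 3′ UTR, between 162 and 396 nt after the stop codon. In tma19, covered by 10 and 8 cDNAs, the window spans the end of the coding sequence. The coding bases not shown were covered by 8 and 9 cDNAs in SPBC8D2.18c, 8 and 6 in SPCC553.10 and 6 and 6 in gas1. The 3′ UTR bases not shown had 7 and 7 in SPAC29A4.02c, 7 and 6 in cpy1 and 6 and 6 in ecm33. Of the 14 bases, only that of cpy1 was also covered in a control, by 1 cDNA. Near copies each count in these covers. With intervals whose ends both lay within 5 nt counted once, the whole of snz1 kept 9 and 7 in replicates 1 and 2. For eca39 3 and 4 remained, for cam1 5 and 3, and for tma19 4 and 3. How often such shared cover arises without a shared contact was not tested. T made up 38.3% of the 14 windows, beside 38.9% of all bases covered by cDNAs of the 43 mRNAs in each Mkt1-HTP library.

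**Figure D1:**
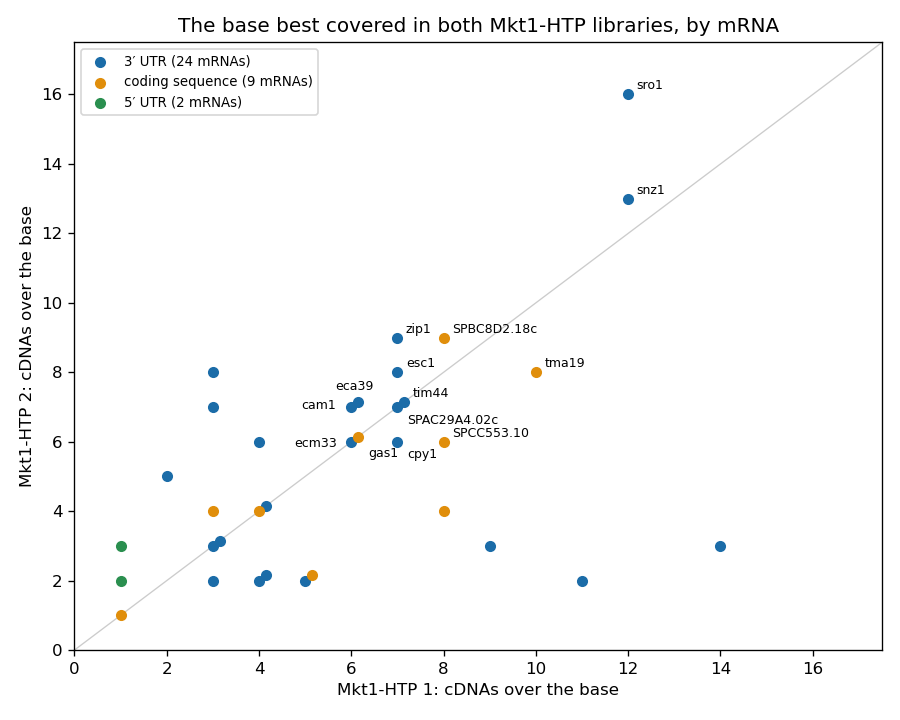
Cover of the base best covered in both libraries, with the number of cDNAs over it in Mkt1-HTP replicate 1 (x axis) and replicate 2 (y axis), 1 point per mRNA and colour for its region; points at the same place are set slightly apart, and the line marks equal cover. Named are the 14 mRNAs with 5 or more in each library, while 8 of the 43 mRNAs had no base covered in both and are not drawn.

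Enzymes of amino acid, vitamin and sugar metabolism made up 6 of the 43. SPBC8D2.18c, adenosylhomocysteinase, which breaks down the product of S-adenosylmethionine-dependent methylation, had 27 and 37 rows with the tag and 0 and 3 without it, or 1103 and 1376 against 0 and 368 CPM. ser3, the first enzyme of serine synthesis, had 29 and 12 rows, and none in the control. Both belong to the set only through the way the files name genes.

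Each row lists the genes at its position whichever strand they are on, and most cDNAs of these 2 mRNAs overlap another gene on the opposite strand. Rows naming several genes numbered 1368 for SPBC8D2.18c, all with SPBC8D2.17, and 957 for ser3, all with SPNCRNA.1140, but 38 in all for the other 41 mRNAs. Of these 38, 23 belonged to fhn1, with SPNCRNA.133 on the same strand. Assigned by strand, SPBC8D2.18c had 651 and 781 cDNAs against 0 and 5, and ser3 had 566 and 432 against 7 and 3. Both would then lie far above the upper limit, and values below are given without them where it matters.

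The other enzymes had few cDNAs, without a row in either control. glt1, glutamate synthase, had 16 and 22, and snz1, which makes the active form of vitamin B6, had 15 and 22. For both, replicate 2 was the higher in CPM, by under 1.5-fold. hxk2, a hexokinase, had 7 and 18, and eca39, the branched-chain amino acid aminotransferase, 14 and 11. All 25 cDNAs of eca39 lay in the 3′ UTR and all 37 sense cDNAs of glt1 outside it.

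Plasma membrane and transport genes numbered 5. pma1, the proton pump that energises the plasma membrane, had 25 and 31 cDNAs with the tag, or 1022 and 1152 CPM, and none in the control. Its 5′ UTR of 1432 nt held 6 and 20 of these cDNAs. fhn1 and pil1, proteins of eisosomes (furrows of the plasma membrane), had 18 and 16 and 14 and 14. Both libraries thus gave nearly the same number for pil1, whose 28 cDNAs all lay in the 3′ UTR, whereas the 3′ UTR of fhn1 held 16 of 18 in replicate 1 and 4 of 16 in replicate 2. A further 23 rows of replicate 1, and none of replicate 2, named fhn1 together with SPNCRNA.133 on the same strand. They are left out of its counts, also by strand, so its libraries were less even than 18 and 16. hal4, a protein kinase that regulates ion transport, had 18 and 9, and bsu1, an importer of vitamin B6, 11 and 9.

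Cell wall and cell surface genes numbered 6. SPCC553.10, annotated as knh3, had 25 and 13 cDNAs against 0 and 3 in the control. ecm33, a cell surface protein with leucine-rich repeats, had 21 and 15, and all 36 lay in its 3′ UTR. pfl2, asl1 (an O-glucosyl hydrolase), gas1 (a glucanosyltransferase that remodels cell wall glucan) and adg1 had 21 to 32 cDNAs each over both Mkt1-HTP libraries and none in the control. The share in the 3′ UTR ranged within this group from 12.5% in pfl2 to 100% in ecm33 and adg1.

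Lipid metabolism was represented by 6 mRNAs. SPBC13A2.03, the enzyme that makes CDP-diacylglycerol, a precursor of phospholipids, was the least even of the 43, with 37 cDNAs in replicate 1 (1512 CPM) and 5 in replicate 2 (186 CPM). SPAC1786.02, a phospholipase, also differed by 3-fold or more, with 15 and 5. Better matched were cut6, acetyl-CoA carboxylase, with 12 and 12, fas1, the beta subunit of fatty acid synthase, with 21 and 13, and the lysophospholipase plb1, with 17 and 11. The acyl-CoA desaturase SPCC1281.06c had 6 and 15. Only fas1 had a control row, 1 in replicate 2.

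The 3 transcription factors had no control cDNA. zip1, a DNA-binding factor, had 17 and 24, the GATA-type factor SPCC1393.08 had 10 and 21, and esc1 had 13 and 17. In this group 67.5% (interval 52.0 to 79.9) and 93.5% (84.6 to 97.5) of cDNAs lay in the 3′ UTR, and with both libraries pooled each of the 3 had over 50% there. In replicate 1 SPCC1393.08 had 3 of 10 there, and in replicate 2 17 of 21.

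Factors of translation and the ribosome numbered 6. The gamma subunit of elongation factor EF-1, SPAC29A4.02c, had 17 and 14 cDNAs, and the initiation factors sum3 (an RNA helicase), tif11 (eIF1A) and SPAC1006.07 (eIF4A) had 14 and 12, 11 and 13, and 16 and 7. oga1, annotated as stm1, had 19 and 11. tma19, the translationally controlled tumor protein, had 15 and 8 against 0 and 4 in the control, or 613 and 297 CPM against 0 and 491 CPM. Its control replicate 2 thus lay between the 2 Mkt1-HTP libraries.

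Mitochondrial proteins numbered 3. atp2, a subunit of the ATP synthase, had 13 and 20 cDNAs, and tim44, which links the import channel to the matrix chaperone, 11 and 17. ssc1, that chaperone, had 5 and 17 and 1 control cDNA in replicate 2. On these rows it was the third of the mRNAs whose CPM differed by 3-fold or more. A further 7 rows of replicate 1 also named SPAC664.12C on the opposite strand. Assigned by strand, ssc1 had 12 and 17 cDNAs, and 2 in control replicate 2, so the 3-fold difference came from how rows name genes.

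Actin and calmodulin formed a contrasting pair. act1, actin, had 30 and 11 cDNAs with the tag and 2 and 6 without it, or 1226 and 409 CPM against 1147 and 737 CPM, so the groups overlapped. cam1, calmodulin, had 10 and 12 and none in the control.

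Of 6 further mRNAs, sro1 had 17 and 20 cDNAs and no control cDNA. but2 had 11 and 24 against 2 and 0, and cpy1, a vacuolar protease, 11 and 14 against 1 and 0. Since 1 cDNA of control replicate 1 weighs 574 CPM, the control exceeded both Mkt1-HTP libraries in that replicate for these 2 mRNAs, at 1147 CPM for but2 and 574 CPM for cpy1. ecl2, SPCC594.02c and the cyclin clg1 had 8 and 17, 6 and 19, and 14 and 7, with no control cDNA.

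**Figure D2:**
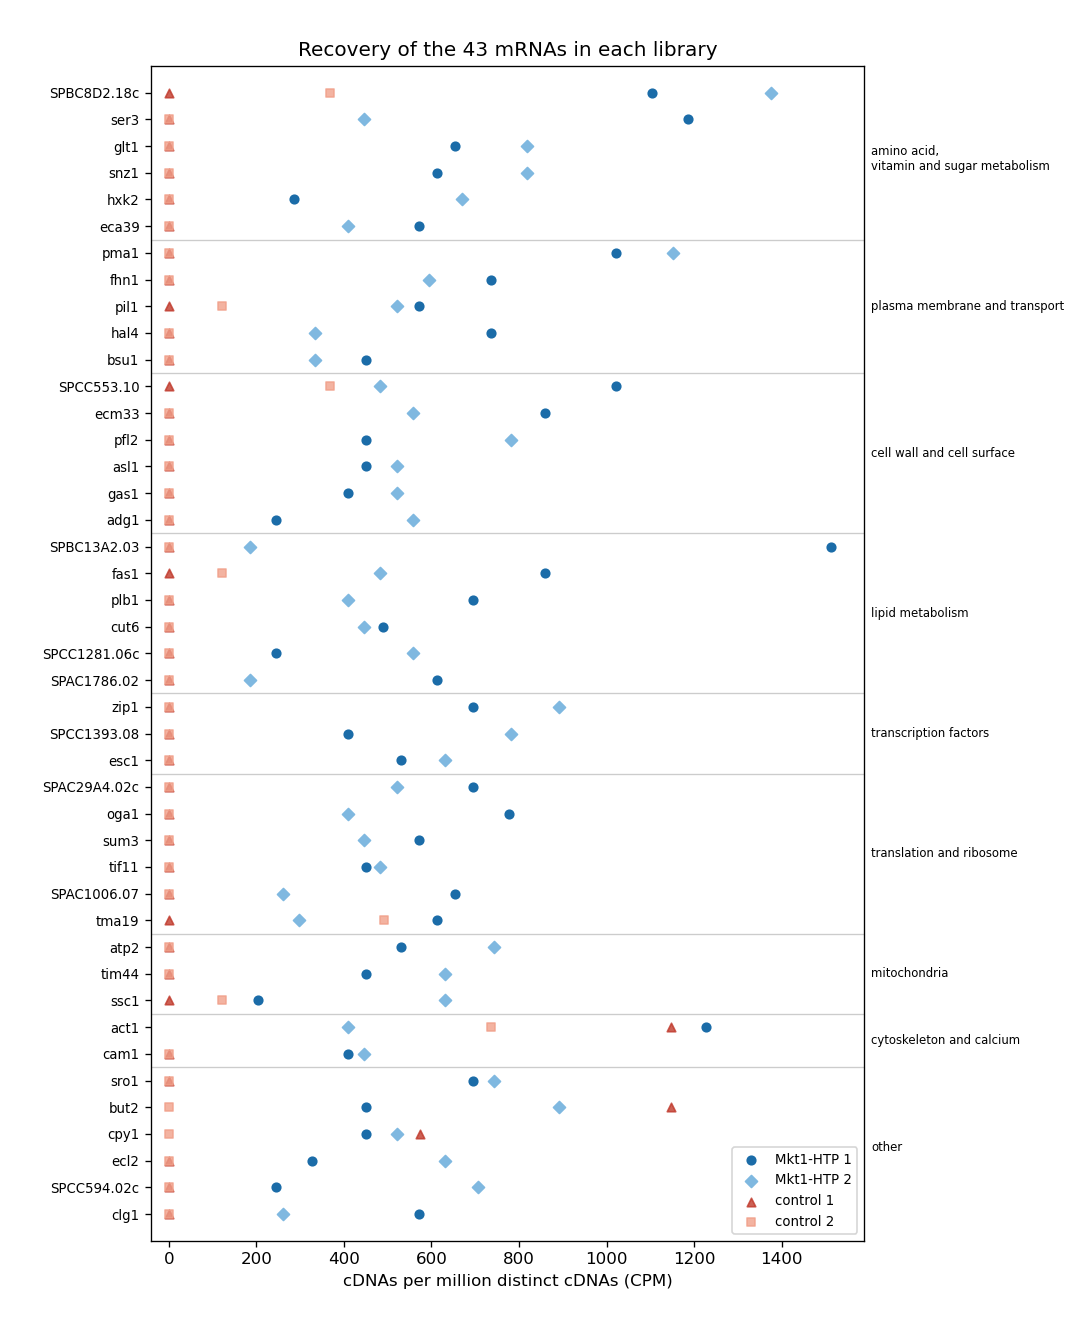
Recovery of each of the 43 mRNAs in the 4 libraries, in CPM (x axis), grouped by role. Circles and diamonds are the Mkt1-HTP libraries, triangles and squares the controls. Most control points sit at 0, and those of act1, but2, cpy1 and tma19 lie among or above the Mkt1-HTP points.

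In all, 34 of the 43 mRNAs had no row naming them alone in either control. Among all 112 mRNA genes with 5 or more rows in each Mkt1-HTP library, 76 (67.9%) had none. By strand, ser3, which is among the 34, had 7 and 3 control cDNAs, and 33 of the 43 had no control cDNA. The depth of the control limits what this can show. Against a floor of 3 counts over both controls (303 CPM), recovery was at least 1.28-fold higher for the lowest of the 34 and at least 3.59-fold higher for the highest, pma1, with a median bound of 1.76-fold. The minimum of 20 rows in the rule already sets a bound of 1.28, so that bounds over 1 follow from how the mRNAs were chosen and show no enrichment. Against control replicate 1 alone the floor is 1721 CPM, above all of them.

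Control cDNAs of the set were also few in kind. The 24 rows fell on 9 mRNAs, and when intervals with both ends within 5 nt were counted once, 3 and 8 remained in control replicates 1 and 2. All 6 rows of act1 in control replicate 2 were 1 such interval in the coding sequence, all with a deletion, as were all 4 rows of tma19.

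A count test over all genes placed few of the 43 beyond the spread between libraries. edgeR's quasi-likelihood test on strand-assigned counts called 12 of 430 genes higher in Mkt1-HTP (2.79%) and 7 lower (1.63%). Of the 43, 2 were called higher, SPBC8D2.18c and ser3, with log2 fold changes of 5.91 ± 0.98 (SE, edgeR adjusted p = 5.1e-07) and 3.53 ± 0.92 (edgeR adjusted p = 0.0060). DESeq2 called the same 2, among 10 of all 430 genes. The size of both changes moved with single libraries. For ser3 the log2 fold change became 5.71 on leaving out control replicate 1 and 2.28 on leaving out control replicate 2. For SPBC8D2.18c it became 5.49 when control replicate 1 was left out. Leaving out control replicate 2 removed every control cDNA, so that the fitted 11.9 is no bound. With the replicate number as a block, 4 of 430 genes (0.93%) were called, and ser3 was no longer among them (edgeR adjusted p = 0.11), although its fitted log2 change was 3.88. With the mRNA cDNAs of each library as its size, edgeR called 0 genes higher, 1 at an unadjusted p under 0.05, and the log2 fold changes were 3.29 for SPBC8D2.18c and 0.97 for ser3. On rows naming 1 gene, the counts that define the set, edgeR called 0 of the 43 higher, beside 11 of all 375 genes tested. At an unadjusted p under 0.05 it was 15 of the 43, beside 38 of the 375. The same contrast chose the set, so nothing further is read from these counts.

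None of the remaining 41 mRNAs passed in edgeR or DESeq2. The lowest edgeR adjusted p among them was 0.19, for pma1, followed by 0.31 for SPBC13A2.03, and without control replicate 1 both passed (edgeR adjusted p = 0.0077 and 0.0497). At an unadjusted p under 0.05, 17 of the 43 were higher, beside 48 of all 430 genes (11.2%), which needed fewer cDNAs to be tested, and nothing is read from this either. For act1 the log2 fold change was -0.11 ± 1.29 (edgeR adjusted p = 0.97), and its sign turned when near-identical intervals were counted once and without Mkt1-HTP replicate 2 or control replicate 1.

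Pathway lists that surround these mRNAs gave no further gene higher in Mkt1-HTP. Over 15 lists, among them amino acid synthesis, lipid synthesis, cell wall, transporters, transcription factors, translation initiation and the mitochondrion, 63 genes had enough cDNAs to be tested, 19 of them from the 43. In edgeR none was higher and 2 were lower, beside 12 and 7 of all 430 genes tested. At an unadjusted p under 0.05 in edgeR 11 were higher, beside 48 of all 430. DESeq2 called none in either direction, beside 10 higher and 1 lower of all 430. At an unadjusted p under 0.05 in DESeq2 1 was higher, beside 15 of all 430. The lower ones in edgeR were vma3 of the vacuolar ATPase, with 2 and 0 cDNAs against 8 and 0, and crn1, coronin, with none against 0 and 13. Each thus rested on 1 control library. A list named for Mkt1 and its partners, which includes Puf genes, had 8 and 7 cDNAs over 8 genes found. These cDNAs came from meu29, puf3, puf4 and puf5, while mkt1, ath1 (the Pbp1 homologue), pab1 and mpf1 had none. None of the 8 genes reached the 10 cDNAs needed for testing.

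The rule set no condition on position, but rows naming 2 genes were left out of it, so stretches that overlap another gene are missing from the positions below. In the 43 mRNAs the middle of the cDNA lay in the 3′ UTR for 58.6% (interval 54.7 to 62.3) in Mkt1-HTP replicate 1 and 50.6% (46.8 to 54.4) in replicate 2. The 3′ UTR makes up 17.8% of the length of these mRNAs, against 20.3% over all mRNAs. Over all mRNAs, likewise on rows naming 1 gene, the share of cDNAs in the 3′ UTR was 64.6% and 64.7% in the same libraries. The 43 mRNAs thus lay below the share over all mRNAs, which rests largely on the 14 mRNAs with over 100 rows. These 14 supplied 4381 of the 8725 and 4292 of the 8467 cDNAs, with 88.3% and 88.7% of theirs in the 3′ UTR. The comparison therefore does not place the 43 below most other mRNAs. In the controls 5 of 5 and 5 of 19 cDNAs lay there (100%, interval 56.6 to 100, and 26.3%, 11.8 to 48.8). The 2 controls thus bracketed the Mkt1-HTP libraries, and an exact two-sided permutation test over the libraries gave p = 1, where 2 against 2 cannot go below 0.33. Without control replicate 1 the mean difference between Mkt1-HTP and control turned from -8.57 to 28.3 percentage points. The last 20% of the mRNA held 50.6% and 47.7% of cDNAs in Mkt1-HTP against 5 of 5 and 6 of 19 (exact permutation p = 1).

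The share in the 3′ UTR was then set beside that of mRNAs with more and with fewer rows. In the 14 mRNAs with over 100 rows it was 88.3% (87.3 to 89.2) and 88.7% (87.8 to 89.7), and in 65 mRNAs with 10 to 19 rows 43.1% (38.6 to 47.6) and 28.95% (25.0 to 33.3). In both libraries the 43 mRNAs lay between. Their difference from the first set was -29.7 and -38.1 percentage points, and from the second 15.5 and 21.7. An exact sign-flip permutation over the 2 libraries gave p = 0.5 for each difference, the smallest it allows. Control replicate 2 had the same order of the 3 sets, at 15.6%, 26.3% and 52.4% from the fewest rows to the most. Within the 43 mRNAs no such order was seen, with a Spearman's rho of -0.0011 between rows and 3′ UTR share, as a description. Counts and shares come from the same libraries, and the sets differ in depth per mRNA by their definition. They also differ in the kinds of gene they can hold, since genes were left out by name only from the set of 43.

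**Figure D3:**
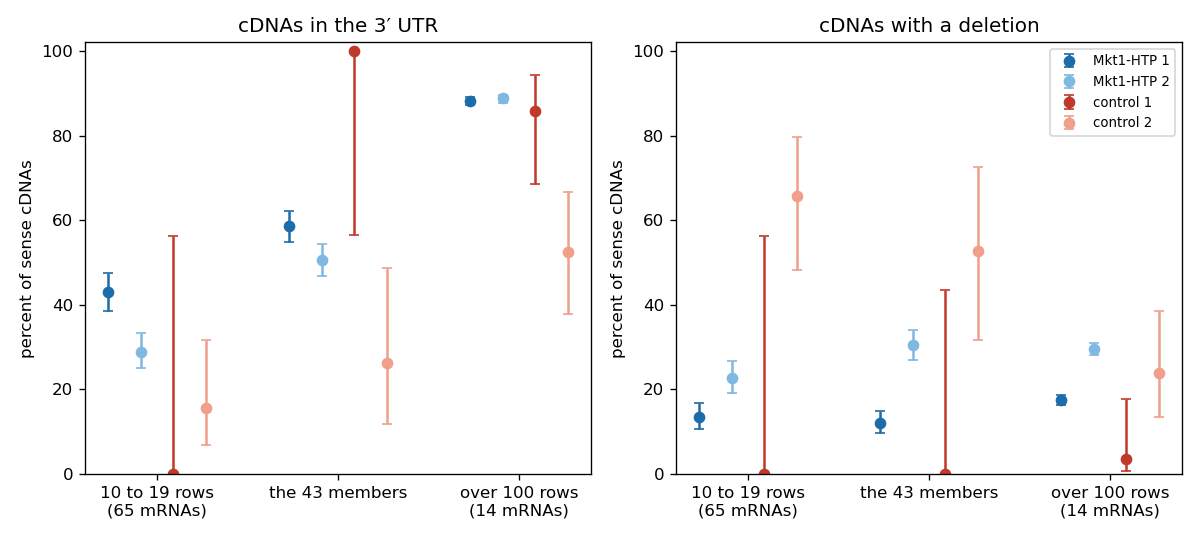
Percent of sense cDNAs in the 3′ UTR (left) and with a deletion (right) in each library, for mRNAs with 10 to 19 rows, the 43 mRNAs and mRNAs with over 100 rows. Points are single libraries and bars Wilson 95% intervals. In the 2 Mkt1-HTP libraries the 3′ UTR share of the 43 mRNAs lies between the other sets, and the control intervals are wide.

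mRNAs of the set differed widely among themselves. Over both Mkt1-HTP libraries the median share in the 3′ UTR was 58.8%, 24 of the 43 had over 50%, and 16 had over 50% in each library, while 12 were over 50% in one and under 50% in the other. All cDNAs lay in the 3′ UTR in 7 mRNAs (ecm33, esc1, tim44, pil1, eca39, cam1 and adg1), and none in 4 (SPBC8D2.18c, glt1, cut6 and ssc1). The longest mRNAs had low shares. In the 5 longer than 4000 nt, pma1, glt1, fas1, pfl2 and cut6, the share ran from 0 to 23.5%, and over the 43 Spearman's rho between mRNA length and this share was -0.41, as a description of points that come from the same 2 libraries.

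For SPBC8D2.18c the value of 0 is set by the rule. Its 3′ UTR overlaps a gene on the opposite strand, and rows there name both genes. Among its strand-assigned cDNAs 95.7% (93.9 to 97.0) and 94.9% (93.1 to 96.2) lay in the 3′ UTR, and for ser3 97.3% (95.7 to 98.4) and 98.4% (96.7 to 99.2). ssc1 likewise had 7 of 12 strand-assigned cDNAs in the 3′ UTR in replicate 1 and 0 of 17 in replicate 2. Without SPBC8D2.18c and ser3 the share over 41 mRNAs was 61.7% and 53.9% on rows naming 1 gene and 62.6% and 55.3% by strand.

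Some mRNAs were recovered in their 5′ UTR. pma1 had 26 of 56 cDNAs in the 5′ UTR. SPAC1786.02 had 12 of 15 and 3 of 5 there, and SPCC594.02c 1 of 6 and 9 of 19. pfl2 and cpy1 had 7 and 6 such cDNAs, all in replicate 2. Over the 43 mRNAs the 5′ UTR held 32 and 51 cDNAs and the coding sequence 36.1% (32.5 to 39.8) and 39.7% (36.0 to 43.5).

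**Figure D4:**
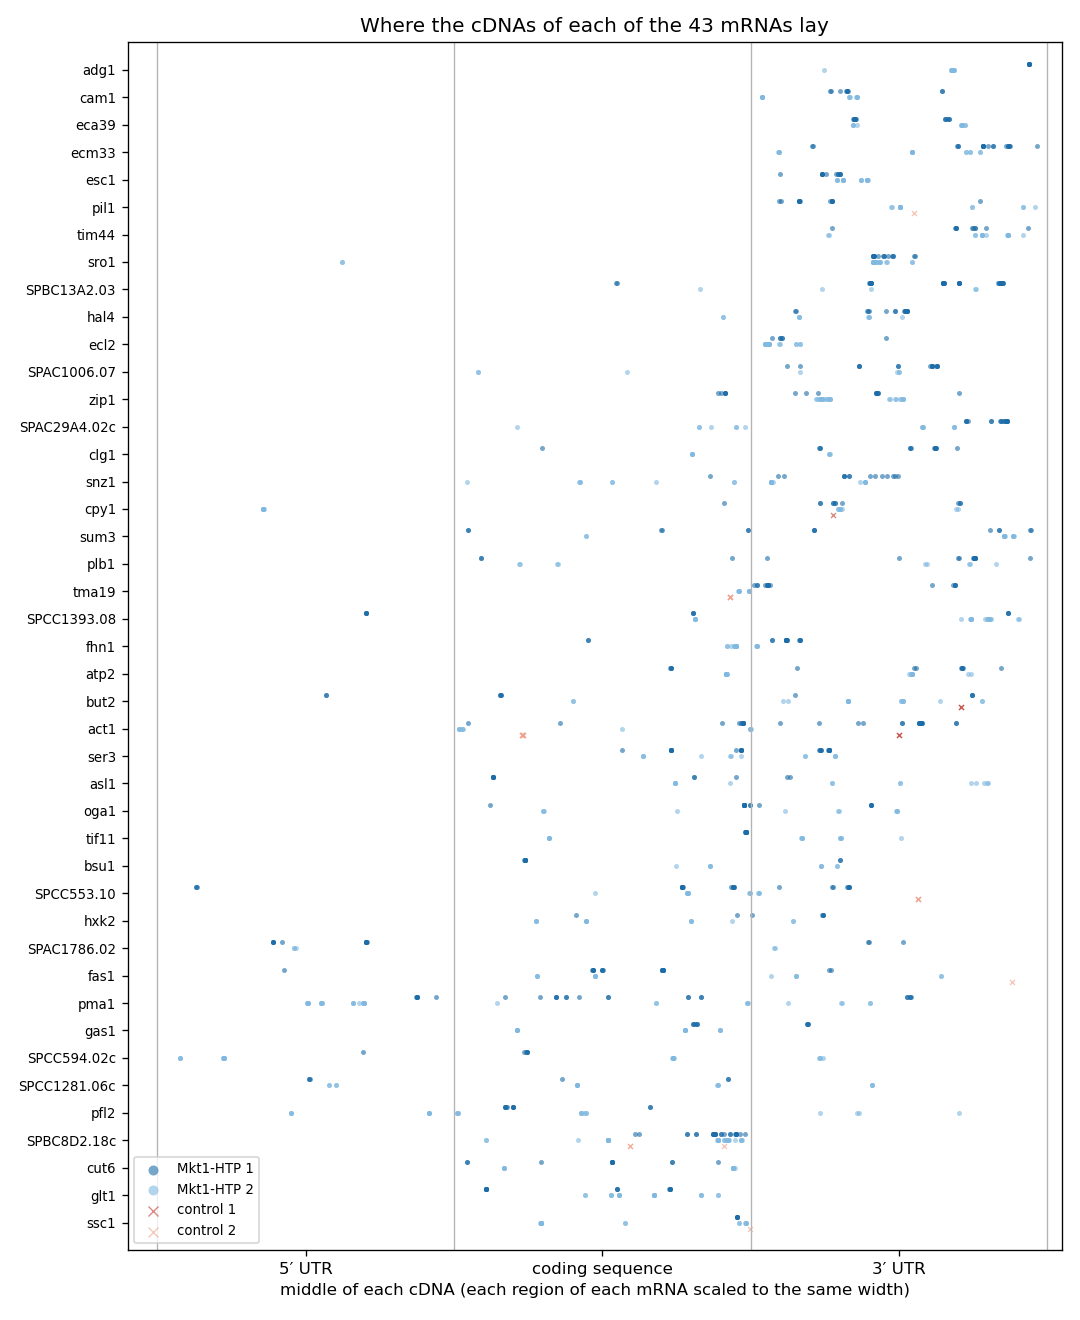
Middle of each cDNA along each of the 43 mRNAs, with the 5′ UTR, coding sequence and 3′ UTR each scaled to the same width (x axis) and mRNAs ordered by their share in the 3′ UTR. Dots are Mkt1-HTP and crosses control cDNAs; 16 cDNAs before the annotated start are not drawn. At the top 7 mRNAs have all cDNAs in the 3′ UTR, and at the bottom 4 have none.

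The 2 libraries often met at the same place, though less often than in the most recovered mRNAs. A cDNA of replicate 1 overlapped one of replicate 2 from the same mRNA in 54.3% of cases (355 of 654), and the reverse held in 46.4% (305 of 658). In mRNAs with over 100 rows these shares were 96.9% and 97.1%, and in those with 10 to 19 rows 29.9% and 26.1%. With more cDNAs per mRNA an overlap comes more easily, and this was not corrected for. At least 1 block of overlapping cDNAs from both libraries was present in 35 of the 43 mRNAs. The main block of sro1 held 15 and 16 cDNAs in 90 nt and that of eca39 6 and 7 in 61 nt, whereas the tim44 block held 10 and 15 in 182 nt.

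Many cDNAs were near copies of each other. Counted once where both ends lay within 5 nt, the 654 and 658 sense cDNAs became 263 and 246, so that 2.49 and 2.67 rows stood for each interval. Per mRNA 3 to 26 intervals remained over both libraries, with a median of 11, and 22 of the 43 mRNAs had 5 or more in each library. Of the 21 cDNAs of adg1 only 1 and 2 intervals remained.

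Deletions were more frequent in replicate 2 than in replicate 1 of both groups. Among cDNAs of the 43 mRNAs, 12.08% (9.80 to 14.8) in Mkt1-HTP replicate 1 and 30.4% (27.0 to 34.0) in replicate 2 had a deletion, against 0 of 5 and 10 of 19 (52.6%, 31.7 to 72.7) in the control. The exact permutation test over libraries gave p = 1, and the mean difference turned from -5.08 to 21.2 percentage points without control replicate 2 and to 4.08 without Mkt1-HTP replicate 1. A count of 0 of 5 allows a share of up to 43.4% (Wilson upper bound). Replicate 2 was likewise higher in mRNAs with over 100 rows, at 17.5% and 29.5%. T was the deleted base in 60.2% of 108 and 53.0% of 438 deletions in Mkt1-HTP, and made up 38.9% of the covered bases in each library. Over all mRNAs T was 52.8% and 54.9% of deletions in the same libraries and 37.4% of covered bases in each. In control replicate 2, T was 5 of the 17 deletions in the 43 mRNAs. Near copies and neighbouring deleted bases of a cDNA each count in these numbers.

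Bases deleted in 3 or more cDNAs numbered 73 in 31 of the 43 mRNAs, 12 of them in replicate 1 and 61 in replicate 2. None was deleted in both Mkt1-HTP libraries, but many had no cover in the other library. No control cDNA covered any of the 73 bases, so the controls could not show a deletion there. In 9 mRNAs a base was deleted in 7 or more cDNAs. Windows of 29 nt around that base are shown for 6 of them, since a deletion is the mark by which CRAC locates a contact, while glt1, ser3 and snz1, which tied with atp2 and cut6 at 7, are only named. Capitals mark bases deleted in 3 or more Mkt1-HTP cDNAs, and sequences are 5′ to 3′ in the sense direction from the same RefSeq genome.
adg1 (chrI:5265547-5265575, minus strand): ttcaaatgctgcTGGCcagcattccattg
SPBC8D2.18c (chrII:1392267-1392295, minus strand): ttggtaaaggttGTTCaacttctcttcgt
oga1 (chrII:4285098-4285126, plus strand): gactgactttccCGCTcttgcatagatga
ssc1 (chrI:1726585-1726613, plus strand): tacttcaatgactCTcagcgtcaagctac
atp2 (chrI:968609-968637, minus strand): tatctagtttctttTgattctacaattat
cut6 (chrI:1246479-1246507, minus strand): ttgcaaagaaggtTGTccgtaaaccgttg

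In adg1 all 14 cDNAs of replicate 2 that covered the site had the deletion, 292 nt after the stop codon, and no cDNA of replicate 1 lay there. The same held in the coding sequences of SPBC8D2.18c (10 of 10) and cut6 (7 of 7), both in replicate 2 alone. oga1 had 8 of 13 at the end of its coding sequence, in replicate 1 alone, and ssc1 8 of 9 in replicate 2. Of these 6 sites only that of atp2, in the 3′ UTR with 7 of 8 in replicate 2, was also covered in replicate 1, where 0 of 2 cDNAs had the deletion. With 1 library at each site, a contact and copies of 1 molecule cannot be told apart here.

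Short sequence motifs in the 3′ UTRs were counted as a description. In the last 200 nt of 3′ UTRs at least that long, searched on the sense strand, the Puf-type motif TGTANATA was in 3 of 37 (8.11%), against 5.82% of 2970 mRNAs. AATAAA was in 24.3% against 34.9%, TTTTTT in 51.4% against 43.7% and TATATA in 24.3% against 21.7%. Of the 14 mRNAs with over 100 rows, 12 had such a window and none of these held TGTANATA.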

How the data were processed

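CRAC libraries were made from 2 Mkt1-HTP and 2 untagged control samples, grouped by their titles. Before deposit the authors demultiplexed the reads and collapsed PCR duplicates with pyCRAC tools, used Flexbar against adapters and STAR 2.7.1a against tRNA reads, and aligned the rest to ASM294v2 (Novoalign 3.09.02). Per the file headers, counts then came from pyReadCounters (Counters 1.4.4) with deletions as the only mutations kept. Every deposited row is a distinct cDNA and carries the value 1, so repeated molecules with the same ends cannot be told apart.

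Coordinates were read against the RefSeq reference (ASM294v3), in which all 43 mRNAs were found by locus tag. No coordinate passed the reference lengths, and 99.7%, 99.7% and 99.0% of rows naming 1 mRNA gene on chromosomes I, II and III lay on that gene. Positions and deletions were taken from sense rows naming 1 gene. Genes with 10 or more strand-assigned cDNAs were tested with edgeR 4.0.16 (quasi-likelihood, group only, library size all distinct cDNAs, two-sided, Benjamini-Hochberg adjusted p under 0.05) in R 4.3.3. The SE was derived from the fold change and F. Python 3.11.15 and scipy 1.17.1 gave Wilson intervals and exact permutation tests.

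Alternatives were TMM factors, mRNA cDNAs as library size, DESeq2 1.42.0, no filter, near-identical intervals counted once, the gene field, the replicate block, equal weights, the 3′ end of the cDNA, and leaving out members or libraries. Members without SPBC8D2.18c and ser3, and strand assignment of positions, were added after seeing the data. In a simulation of Mkt1-HTP against control over 430 genes, a 16-fold rise was found by edgeR in 40 of 50 genes where the dispersion was 0.1, with 4 false calls among 230 genes, and in 6 of 50 where it was 0.9, with 0 among 229. The dispersion of the data was 0.93.

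The members and lists were chosen with earlier results of these data known, and roles were assigned from the product names of the annotation after the members were listed. Named were the 15 members with the highest mean CPM in Mkt1-HTP, up to 4 per role and list, members with 5 or more cDNAs in a control library or a 3-fold difference between replicates, the 5 with the highest and the 5 with the lowest 3′ UTR share, genes at the limits of the rule, and up to 6 with the most often deleted base; the remaining members were added to account for all 43. The labels pair same-numbered libraries through a shared sequencing index. The correlation between the deviations of a pair (each library minus its group mean) was 0.061 over 430 genes, of which 250 had no control cDNA, and -0.069 for the 29 genes that had at least 10 cDNAs in the controls (log2 of CPM plus 50). The labels disagree on which adapter belongs to which number but keep the same pairs. P-values measure the spread between 2 libraries per group. The Mkt1-HTP libraries were not copies (chi-square per degree of freedom 7.40).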

Additional observations from a re-analysis of the deposited data

How the results depend on the processing

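Control replicate 1 held 5 cDNAs of the 43 mRNAs and control replicate 2 held 19, which limits every difference from the control. The difference in 3′ UTR share between Mkt1-HTP and control was -8.57 percentage points. It reversed to 28.3 without control replicate 1 and to 11.9 with cDNAs assigned by strand, where SPBC8D2.18c and ser3 hold most cDNAs, and was -8.66 by strand without these 2. Leaving out a library gave -45.4 to 28.3. The difference in the last 20% was -16.6. It reversed to 17.6 without control replicate 1 and to 8.09 by strand, with a range of -50.8 to 17.6 over the left-out libraries. The difference in cDNAs with a deletion was -5.08. It reversed to 1.14 with near-identical intervals counted once, 2.17 without the 5 members with the most cDNAs, 4.08 with Mkt1-HTP replicate 1 left out and 21.2 with control replicate 2 left out, with a range of -31.4 to 21.2. The replicate block gave the same differences of -8.57, -16.6 and -5.08, as it must with 1 value per library. Weighting each member equally gave no value, since no member had 3 cDNAs in control replicate 1.

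The 12 genes called higher became 0 with mRNA cDNAs as library size and 4 with the replicate block, and 0 to 28 on leaving out a library (0 and 1 when Mkt1-HTP replicate 1 or 2 was dropped, 28 when control replicate 1 was). The replicate block moved no other call of a member than that of ser3. Among the 43, 2 called became 0 with mRNA library sizes, with the gene field and without either Mkt1-HTP replicate, and 4 without control replicate 1. The median fitted log2 fold change over all tested genes, of which many had no control cDNA, was 4.73. It was 4.54 with mRNA library sizes, 3.86 with the replicate block, 2.98 with every gene of 1 or more cDNAs, 2.09 in DESeq2 and 0.93 with near-identical intervals counted once, where fewer genes were tested. The log2 fold change of act1 turned to 0.77 with near-identical intervals counted once, and ranged from -1.13 to 0.42 on leaving out a library, with 0.14 when that was control replicate 1. For tma19 it turned to -2.36 with mRNA library sizes, and ranged from -0.22 (Mkt1-HTP replicate 1 left out) to 6.03, with -0.11 when control replicate 1 was left out. The causes were not tested. Applied to strand-assigned cDNAs, the rule gave 49 mRNAs, 41 of them shared.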

Other observations

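Outside the set, 14 genes had 20 to 100 rows but under 5 in one Mkt1-HTP library. The plainest, chosen after their values were seen, were lig4, with 22 and 0 rows, and SPBC119.17, with 20 and 0. When the rule was applied to strand-assigned cDNAs, the genes that entered included lip5, with 36 and 52 cDNAs, and pps1, with 35 and 34.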
